A study of Homo sapiens with 6 samples.

Results

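The expression of 42 genes that set or mark the epithelial state and build cell junctions was examined in HCC1806/HM3 cells, a derivative of the human triple-negative, squamous breast carcinoma line HCC1806 that was selected in mice for metastasis to the liver. The members were taken by gene symbol from a list that was chosen with earlier results of these data known. They were sorted by role into EMT (epithelial-mesenchymal transition) transcription factors, mesenchymal markers and regulators of the epithelial state. The junction genes were sorted into adherens junctions with catenins, tight junctions with polarity proteins, and desmosomes. All 42 had a row among the 17860 listed genes and a value in all 6 samples, and all 42 passed the filter on low counts that left 14552 genes for testing. Control cells with a non-targeting shRNA (shNC, 3 samples) were compared with cells carrying an shRNA against MSLN (shMSLN, 3 samples). MSLN encodes mesothelin, a cell-surface glycoprotein. The cells of both groups had been infected with lentivirus and selected with G418, and mRNA was enriched with oligo(dT) and sequenced by BGI. Which human MSLN target sequence the shMSLN samples carried, and whether all 3 came from 1 line, is not given in the sources used here. No label says whether the replicates were separate cultures, so p-values measure only the spread between these samples, which may be technical.

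In an epithelial sheet, neighbouring cells are held together by cadherins. E-cadherin and P-cadherin bind through β-catenin to α-catenin and actin in adherens junctions, where p120-catenin stabilises them at the membrane. Desmogleins and desmocollins bind through plakoglobin, plakophilins and desmoplakin to keratin filaments in desmosomes. Claudins, occludin and junctional adhesion molecules seal the sheet in tight junctions, which rest on the zonula occludens scaffold proteins and define the apical side together with polarity proteins. ZEB, SNAI and TWIST factors repress epithelial genes during EMT, and GRHL, OVOL and ESRP proteins maintain the epithelial programme at the level of transcription and splicing.

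The libraries held between 17507837 and 18512135 estimated counts. MSLN was at 226 to 231 CPM in shNC samples and 35.4 to 37.1 CPM in shMSLN samples, so the knockdown was present in every library labelled shMSLN (CPM are counts scaled to a common library size with TMM factors). Whole-number estimates made up 47.7% of genes above 100 counts in both shMSLN replicates 2 and 3, against 3.36% to 7.02% in the other 4 samples, and among the 42 members 24 and 22 estimates were whole in those replicates against 1 to 4. Whether these 2 samples were quantified differently is not given in the sources used here, and shMSLN replicate 1 is set apart where it bears on a result. The squamous and basal markers KRT5, KRT6A, KRT14, KRT17, KRT16 and TP63 were detected in every sample, with KRT14 and KRT16 under 5 CPM. Their summed level was 2821 to 3186 CPM in shNC and 2356 to 2422 CPM in shMSLN samples, with KRT5, KRT6A, KRT16 and TP63 lower and KRT17 higher in every shMSLN sample, and their part in the junction results was not tested. Summed over the list, 8 fibroblast markers were at 62.9 to 67.0 CPM in shNC and 65.3 to 73.5 CPM in shMSLN samples, 4 endothelial markers at 7.32 to 8.81 and 8.76 to 9.94 CPM, and 4 immune markers at 27.2 to 29.6 and 26.4 to 28.2 CPM. Among 3 hepatocyte markers ALB alone had a value in all 6 samples, at no more than 0.056 CPM, and APOA1 did not exceed 0.15 TPM in the 5 samples with a value. In a bulk sample, fewer cells of a kind and less RNA per cell cannot be told apart.

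MSLN knockdown was accompanied by unequal and mostly small shifts across these genes. At an adjusted p below 0.05 (edgeR's quasi-likelihood test, Benjamini-Hochberg adjustment over all 14552 genes), 8 members were higher and 16 lower in shMSLN cells, whereas 16.6% of all tested genes were higher and 18% lower. The members called in either direction made up 57.1% of the 42, against 34.6% of all tested genes. The list was chosen with earlier results of these data known, so no share in this paragraph measures enrichment independently. The members were also at a higher level, with a median of 79.4 CPM against 27.8 CPM over all tested genes. Among genes with a mean of at least 10 CPM, 22 of 35 members (62.9%) and 39.3% of all such genes were called. The median log2 fold change over the 42 members was -0.083, beside 0.0019 over all tested genes, and the median size of the change was 0.16 beside 0.14. Only 5 members combined a call with a log2 fold change of 0.5 or more in size, as did 7.88% of all tested genes. These were CTNNA3, CDH2 and DSG3 among the rises and PKP1 and TJP3 among the falls. The 3 shMSLN values lay wholly above the shNC values for 10 members and wholly below them for 18, while 46.2% of all tested genes had groups that did not overlap. All 24 called members had the same direction in shMSLN replicate 1 alone, and in all 24 this replicate lay outside the shNC range. Replicate 1 was itself part of the fit that called them, so this agreement is no independent check. For CTNNA3 it lay only just outside, at 0.753 CPM against 0.610 CPM in the highest shNC sample.

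**Figure D1:**
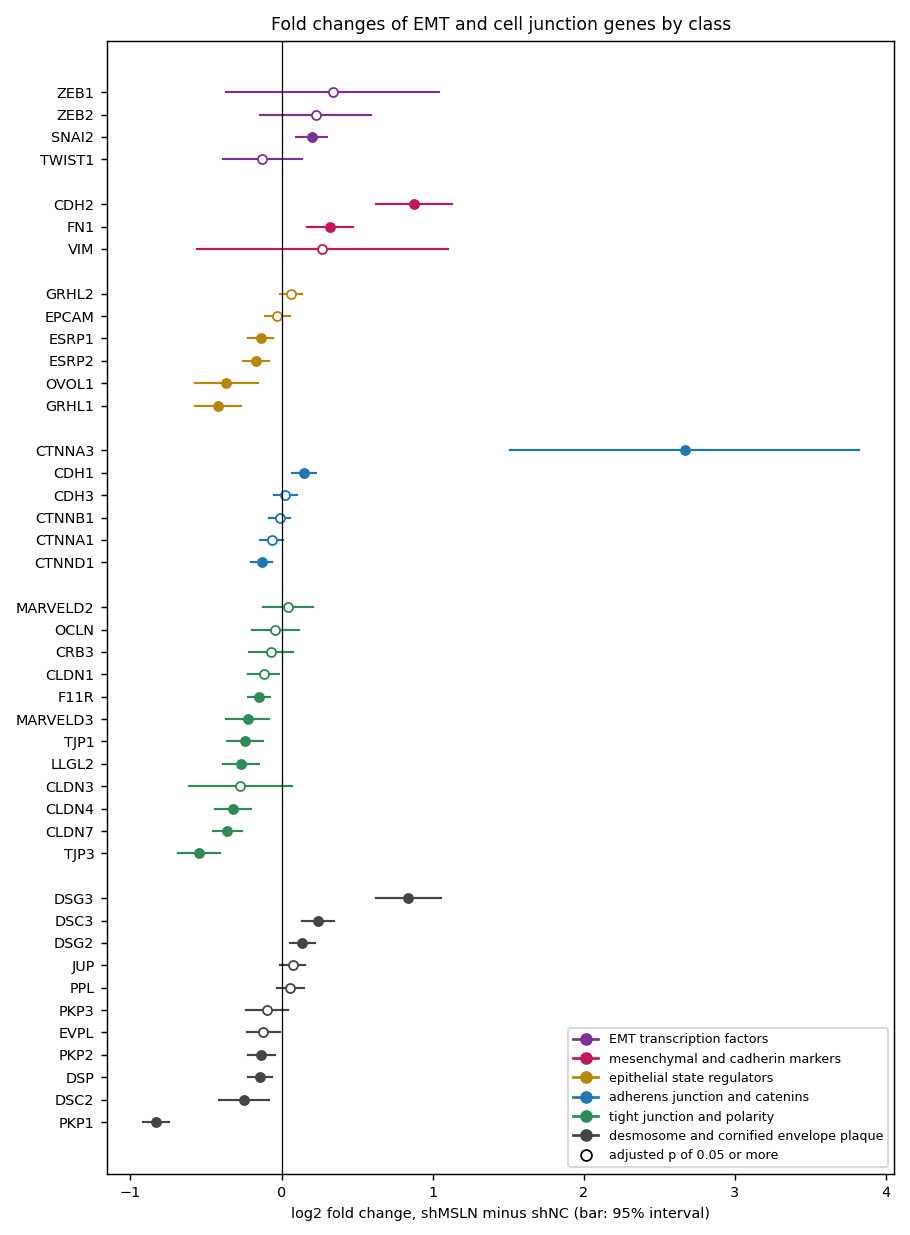
Log2 fold change of each of the 42 members (x axis, shMSLN minus shNC) with its 95% interval from the edgeR fit, sorted within 6 classes marked by colour. Filled points have an adjusted p below 0.05. Tight junction genes lie at or left of 0 except MARVELD2, whose interval includes 0, whereas desmosome genes spread from -0.83 for PKP1 to 0.84 for DSG3.

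In the listed tight junction and polarity class, every called gene fell. Of its 12 genes, 7 fell, 0 rose and 5 did not pass the test, with a median log2 fold change of -0.23. Over all tested genes, 18% were lower and 16.6% higher. The list was chosen with earlier results of these data known, so neither this count nor those of the other classes measure enrichment independently. TJP3 encodes ZO-3, a scaffold of the zonula occludens family that links claudins and occludin to the cytoskeleton, and lies at chr19:3708109-3750813 (GRCh38, GENCODE release 29, forward strand). It was at 27.0, 29.3 and 27.9 CPM in shNC replicates 1, 2 and 3 and at 20.3, 18.8 and 18.6 CPM in shMSLN replicates 1, 2 and 3. Every shMSLN sample was below every shNC sample, and the log2 fold change was -0.54 (standard error 0.065, 95% interval -0.68 to -0.40, adjusted p = 1.68e-05). TJP1, which encodes ZO-1, the founding member of that scaffold family, fell from 62.4, 70.9 and 72.6 CPM to 57.8, 58.0 and 58.1 CPM, a log2 fold change of -0.24. The shNC spread of TJP1 came mainly from replicate 1, which still lay above the shMSLN samples.

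Among the claudins, the membrane-spanning proteins that form the paracellular seal, CLDN7 and CLDN4 fell. CLDN7 was at 126, 118 and 123 CPM in shNC and at 99.1, 96.2 and 90.9 CPM in shMSLN samples, and changed by -0.36 on the log2 scale (standard error 0.045). CLDN4 was at 133, 113 and 126 CPM and at 105, 96.6 and 96.4 CPM, and changed by -0.32 on the log2 scale (standard error 0.056). Neither gene overlapped between the groups. CLDN1, the most abundant claudin of the list, had overlapping groups, with 590, 695 and 648 CPM in shNC and 576, 595 and 608 CPM in shMSLN samples. Its log2 fold change of -0.12 did not pass the test (adjusted p = 0.072), but it passed when shNC replicate 1, the lowest control, was left out (-0.18, adjusted p = 0.000468), and was -0.061 (adjusted p = 0.265) without shNC replicate 2, the highest control. CLDN3, at 3.25 to 4.82 CPM over the 6 samples, also had overlapping groups. Counted per gene length, the 4 claudins together were at 758 ± 28.5 TPM (transcript abundance scaled by gene length and library, as deposited; SD, n = 3) in shNC and 667 ± 2.92 TPM (SD, n = 3) in shMSLN cells. The difference was larger than the spread in either group (p = 0.1 by exact permutation over samples, two-sided, which is as low as groups of 3 can give).

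The remaining falls in this class were in F11R, which encodes junctional adhesion molecule A (log2 fold change -0.15), in LLGL2, a basolateral polarity protein (-0.27), and in MARVELD3, a tetraspanning protein related to occludin (-0.23). F11R was at 330 to 333 CPM in shNC and 296 to 304 CPM in shMSLN samples. LLGL2 was at 69.9 to 77.7 CPM in shNC and 58.3 to 66.3 CPM in shMSLN samples. MARVELD3 was at 25.7 to 28.1 and 21.6 to 24.2 CPM, and lost its call without shNC replicate 3 (adjusted p = 0.0768), without shMSLN replicate 2 (0.0921) and in DESeq2 (0.0565). The other members of the occludin family did not pass. OCLN, the gene for occludin, had a log2 fold change of -0.041 (95% interval -0.20 to 0.11) and MARVELD2, the gene for tricellulin, one of 0.041 (95% interval -0.13 to 0.21). CRB3, the epithelial Crumbs protein of the apical side, had one of -0.070 (95% interval -0.21 to 0.074). In the annotation, exons of CLDN7, MARVELD3 and CRB3 overlap exons of a gene on the other strand. Exons of F11R and CLDN7 overlap those of a gene on their own strand. Outside this class, CDH1, CDH2, DSG2 and VIM, among others, have such overlaps on the other strand. Some reads of all these genes are therefore uncertain. The strand setting is not given in the sources used here.

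**Figure D2:**
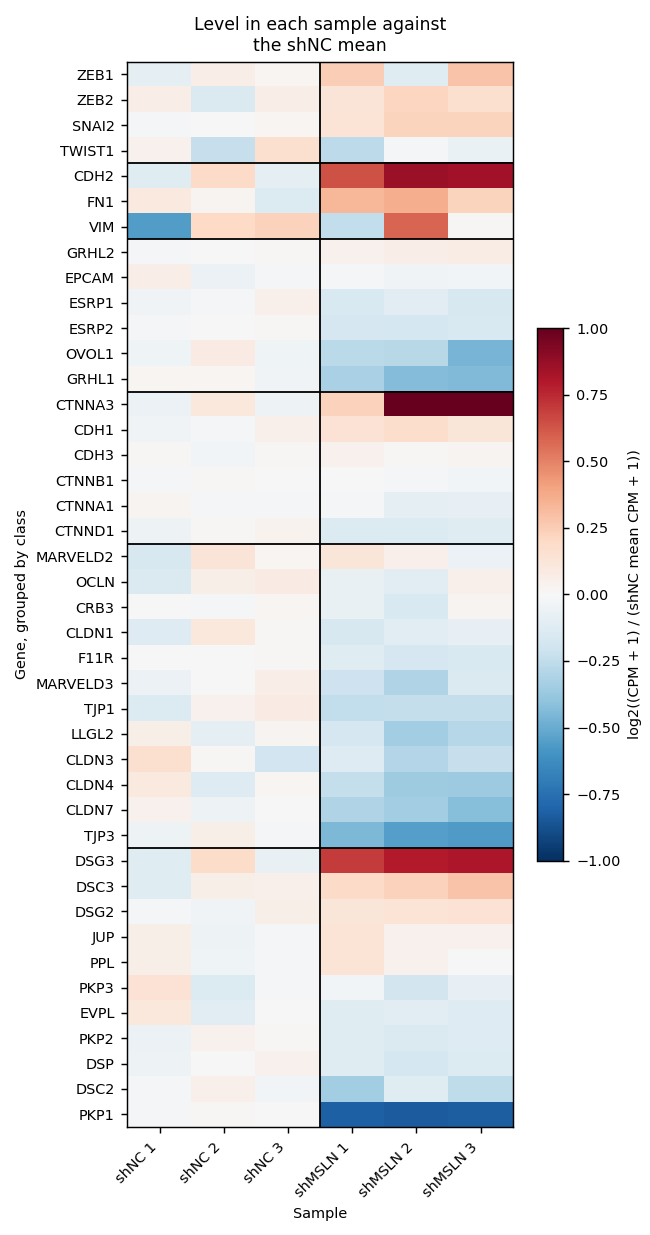
Level of each member in each of the 6 samples, as log2 of the ratio of CPM + 1 to the shNC mean CPM + 1, with red above and blue below the shNC mean and colours capped at -1 and 1. The rows are grouped by class. The blue block in the tight junction rows is present in all 3 shMSLN samples, and CTNNA3 passes the cap in shMSLN replicates 2 and 3 but not in replicate 1.

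The desmosome class moved in both directions. Of 11 genes, 3 rose, 4 fell and 4 did not pass, beside 16.6% higher and 18% lower over all tested genes. The median log2 fold change of the class was -0.097. PKP1 encodes plakophilin 1, a plaque protein of stratified epithelia that clusters desmosomal cadherins and tethers keratin, and lies at chr1:201283452-201332993 (GRCh38, GENCODE release 29, forward strand). It was at 122, 125 and 124 CPM in shNC replicates 1, 2 and 3 and at 69.9, 69.2 and 69.6 CPM in shMSLN replicates 1, 2 and 3. The log2 fold change of -0.83 (standard error 0.040, 95% interval -0.92 to -0.75, adjusted p = 2.06e-09) left 56.2% of the control level. Replicates of each group were almost identical, and no alternative moved the fold change outside -0.84 to -0.80. The other plakophilins changed less. PKP2 was at 101 to 108 CPM in shNC and 94.6 to 96.3 CPM in shMSLN samples (log2 fold change -0.13), and PKP3 was at 74.1 to 90.5 and 71.9 to 79.9 CPM with overlapping groups (-0.097, adjusted p = 0.269). The call of PKP2 was lost without shNC replicate 2 (adjusted p = 0.0682) or 3 (0.0754), without shMSLN replicate 2 (0.0967) or 3 (0.0757), and with upper-quartile scaling (0.0631). PKP3 passed without shNC replicate 2 (-0.16, adjusted p = 0.0414) but was at -0.017 (adjusted p = 0.822) without shNC replicate 1 and at -0.054 (adjusted p = 0.636) without shMSLN replicate 2.

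Per gene length, the 3 plakophilins were at similar levels in shNC cells, with PKP1 at 50.5 ± 1.62, PKP2 at 53.9 ± 3.05 and PKP3 at 63.4 ± 5.27 TPM (SD, n = 3 each). In shMSLN cells PKP1 was at 29.04 ± 0.144 TPM, well below PKP2 at 50.2 ± 0.333 and PKP3 at 60.8 ± 2.96 TPM (SD, n = 3 each). The share of PKP1 in the summed plakophilin TPM went from 30.1% ± 1.04 to 20.7% ± 0.477 (SD, n = 3 each), and the sum from 168 ± 1.67 to 140 ± 3.27 TPM. Both differences separated the groups completely (p = 0.1 by exact permutation, two-sided, the lowest attainable).

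The desmosomal cadherins, which form the adhesive core, differed by gene. DSG3 encodes desmoglein 3, a cadherin typical of basal layers of stratified epithelium, and lies at chr18:31447795-31478702 (GRCh38, GENCODE release 29, forward strand). It was at 7.39, 9.37 and 7.68 CPM in shNC and at 13.8, 14.9 and 15.0 CPM in shMSLN samples. The groups did not overlap, and the log2 fold change was 0.84 (standard error 0.10, 95% interval 0.62 to 1.05, adjusted p = 1.73e-05). DSC3, its desmocollin counterpart in basal layers, rose from 112, 128 and 127 CPM to 139, 144 and 149 CPM (log2 fold change 0.24). DSG2, the broadly expressed desmoglein, rose from 179 to 192 CPM in shNC to 201 to 204 CPM in shMSLN samples (0.14), and lost its call without shMSLN replicate 2 (adjusted p = 0.0566) or 3 (0.0570). DSC2, the broadly expressed desmocollin, fell from 18.6 to 19.7 CPM to 14.8 to 17.5 CPM (-0.25). This call of DSC2 was lost without shNC replicate 2 (adjusted p = 0.0548), without shMSLN replicate 1 (0.0999) or 3 (0.0697), and in DESeq2 (0.0761).

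The 4 desmosomal cadherin genes lie in 1 cluster on chromosome 18, with DSC3 at chr18:30990008-31042815 and DSC2 at chr18:31058840-31102522 on the reverse strand, and DSG3 and then DSG2, at chr18:31498043-31549008, on the forward strand. DSC2 fell while its neighbour DSC3 rose. Per gene length, DSG2 remained the major desmoglein, at 74.6 ± 1.44 TPM in shNC and 83.1 ± 0.588 TPM in shMSLN cells against 3.18 ± 0.489 and 5.81 ± 0.294 TPM for DSG3 (SD, n = 3 each). The DSG3 share of their sum was 4.09% ± 0.608 and 6.53% ± 0.268, and the DSC2 share of the desmocollin sum was 18.03% ± 1.31 and 13.6% ± 1.46 (SD, n = 3 each; p = 0.1 for both by exact permutation, two-sided, the lowest attainable).

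Of the plaque proteins, DSP, the gene for desmoplakin that anchors keratin, fell from 360, 376 and 386 CPM to 344, 330 and 341 CPM (log2 fold change -0.14), and lost its call without shMSLN replicate 2 (adjusted p = 0.0640). JUP, the gene for plakoglobin, which serves both desmosomes and adherens junctions, was at 510 to 551 CPM in shNC and 544 to 580 CPM in shMSLN samples (0.073, 95% interval -0.010 to 0.16), and passed without shNC replicate 1 (0.10, adjusted p = 0.0279) but was at 0.048 (adjusted p = 0.350) without shNC replicate 2 and at 0.041 (adjusted p = 0.494) without shMSLN replicate 1. PPL and EVPL, the genes for periplakin and envoplakin of the cornified envelope, had log2 fold changes of 0.059 and -0.12 that did not pass. EVPL passed without shNC replicate 2 (-0.17, adjusted p = 0.0100) but was at -0.063 (adjusted p = 0.268) without shNC replicate 1. With shMSLN replicate 2 or 3 left out, 4 instead of 7 desmosome genes were called, and these 4 included PKP1 and DSG3.

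**Figure D3:**
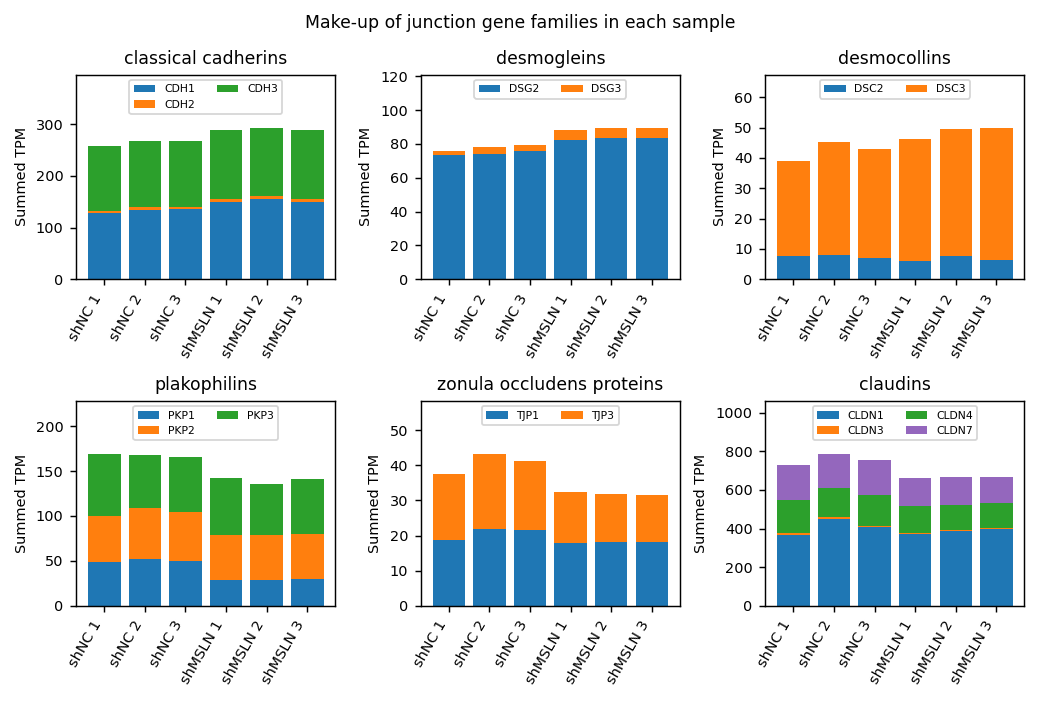
Summed TPM of the listed members of 6 junction gene families in each sample, as deposited, with each gene's part as a coloured segment. The plakophilin bars are lower in the 3 shMSLN samples, where the PKP1 segment is smaller (20.7% against 30.1% of the sum on average), while the cadherin bars are made up almost wholly of CDH1 and CDH3 in every sample.

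The listed adherens junction genes changed little, apart from 1 gene of low level. Of 6 genes, 2 rose, 1 fell and 3 did not pass, beside 16.6% higher and 18% lower over all tested genes. The median log2 fold change of the 6 was 0.0062. CDH1, the gene for E-cadherin, the defining adhesion molecule of epithelia, lies at chr16:68737225-68835548 (GRCh38, GENCODE release 29, forward strand). It was at 288, 291 and 304 CPM in shNC and at 325, 333 and 320 CPM in shMSLN samples. It rose without overlap by 0.15 on the log2 scale (standard error 0.036, 95% interval 0.070 to 0.23, adjusted p = 0.00581). CDH3, the gene for P-cadherin, next to CDH1 at chr16:68636189-68722616, had overlapping groups (201, 196 and 201 CPM against 205, 201 and 203 CPM) and a log2 fold change of 0.025 (95% interval -0.050 to 0.10). The 2 neighbours were close in level per gene length, at 133 ± 4.26 TPM for CDH1 and 127 ± 0.636 TPM for CDH3 in shNC cells and 151 ± 3.26 and 133 ± 0.930 TPM in shMSLN cells (SD, n = 3 each).

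Among the catenins, CTNND1, the gene for p120-catenin, which stabilises cadherins at the membrane, fell from 1278, 1341 and 1362 CPM to 1207, 1206 and 1221 CPM (log2 fold change -0.13). Part of its exons are shared with a read-through gene on the same strand. CTNNB1, the gene for β-catenin, and CTNNA1, the gene for αE-catenin, did not pass. CTNNB1 was at 491 to 501 and 486 to 496 CPM (-0.013, 95% interval -0.082 to 0.056) and CTNNA1 at 457 to 471 and 433 to 457 CPM (-0.066, 95% interval -0.14 to 0.0090). CTNNA3, the gene for αT-catenin, which is best known from heart and testis, lies at chr10:65912518-67696169 (GRCh38, GENCODE release 29, reverse strand). It was at 0.438, 0.610 and 0.445 CPM in shNC and at 0.753, 4.21 and 4.69 CPM in shMSLN replicates 1, 2 and 3. Its log2 difference of 2.67 (standard error 0.54, 95% interval 1.51 to 3.82, adjusted p = 0.0015) rested on replicates 2 and 3, which are the samples with many whole-number estimates. With replicate 1 alone against shNC the log2 fold change was 0.59 (adjusted p = 0.519), and with robust estimation the call was lost (adjusted p = 0.0711). Per gene length CTNNA3 made up at most 0.368% of the summed TPM of CTNNA1 and CTNNA3 in any sample.

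**Figure D4:**
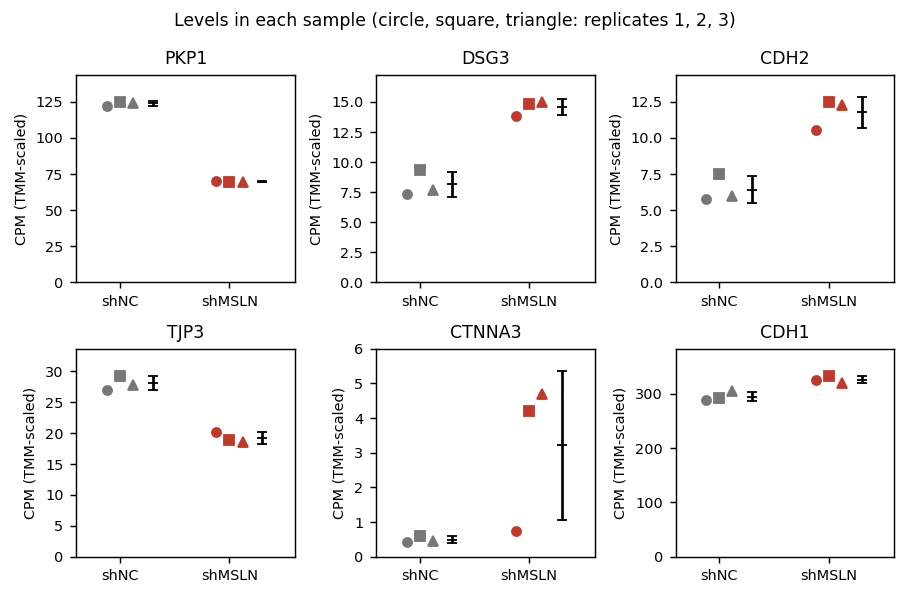
TMM-scaled CPM (y axis, from 0) of PKP1, DSG3, CDH2, TJP3, CTNNA3 and CDH1 in each sample, with replicates 1, 2 and 3 as circle, square and triangle and the group mean with its SD (n = 3) beside them. PKP1 and TJP3 were lower and DSG3, CDH2 and CDH1 higher in all 3 shMSLN samples, whereas CTNNA3 in shMSLN replicate 1 (0.753 CPM) stayed near the shNC samples.

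Of the mesenchymal markers, CDH2 and FN1 rose while VIM did not pass the test. CDH2, the gene for N-cadherin, whose rise at the expense of E-cadherin is the cadherin switch of EMT, lies at chr18:27950966-28177446 (GRCh38, GENCODE release 29, reverse strand). It was at 5.80, 7.48 and 5.96 CPM in shNC and at 10.5, 12.5 and 12.3 CPM in shMSLN samples. The groups did not overlap, and the log2 fold change was 0.87 (standard error 0.12, 95% interval 0.62 to 1.13, adjusted p = 5.01e-05). CDH1 and CDH2 therefore rose together. Per gene length, CDH2 made up 1.33% ± 0.206 of the summed CDH1, CDH2 and CDH3 TPM in shNC and 2.26% ± 0.190 in shMSLN cells (SD, n = 3 each; p = 0.1 by exact permutation, two-sided, the lowest attainable). FN1, the gene for the matrix protein fibronectin, was at 25.8, 24.6 and 21.8 CPM and at 30.6, 31.2 and 28.2 CPM (log2 fold change 0.32, standard error 0.071, adjusted p = 0.00309). VIM, the gene for the intermediate filament vimentin, was near the detection limit, with 10 to 30 deposited counts in shNC and 17 to 43 in shMSLN samples. It was at 0.547, 1.61 and 1.67 CPM and at 0.914, 2.41 and 1.30 CPM. Its log2 difference of 0.27 (standard error 0.39, 95% interval -0.56 to 1.10, adjusted p = 0.629) was not resolved at this depth. Its sign was the opposite in 3 of 15 alternatives. These were without shNC replicate 1 (-0.094), without shMSLN replicate 2 (-0.20) and with shMSLN replicate 1 alone (-0.47). The fibroblast marker sum given above overlapped between the groups; COL1A1 and THY1 made up most of it, POSTN did not exceed 0.27 CPM in any sample. Of the 8 markers, 2 were higher in every shMSLN sample than in every shNC sample, both at low levels. DCN was at 1.26, 0.831 and 1.17 CPM in shNC and at 1.99, 1.68 and 1.64 CPM in shMSLN samples, and COL1A2 at 0.109, 0 and 0 CPM and at 0.430, 0.224 and 0.169 CPM. Their part in the rises of CDH2 and FN1 was not tested.

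Among the EMT transcription factors, SNAI2 was the most abundant and the 1 gene of 4 that passed. SNAI2, the gene for Slug, a repressor that also serves basal epithelial cells, was at 52.5, 53.5 and 53.9 CPM in shNC and at 58.6, 62.4 and 62.5 CPM in shMSLN samples, a rise of 0.20 on the log2 scale (standard error 0.047, adjusted p = 0.00452). TWIST1 had overlapping groups, at 7.82 to 10.6 and 7.63 to 9.20 CPM (-0.13, 95% interval -0.39 to 0.13). ZEB1, the repressor most closely tied to loss of CDH1, was at 0.602, 0.776 and 0.724 CPM in shNC and at 1.02, 0.561 and 1.07 CPM in shMSLN samples. With 10.0 to 19.1 deposited counts per sample, its log2 difference of 0.34 (standard error 0.33, 95% interval -0.37 to 1.04, adjusted p = 0.461) could not be told from 0 at this depth. ZEB2 was at 2.33 to 2.85 and 3.01 to 3.25 CPM, without overlap, but its log2 fold change of 0.22 did not pass (adjusted p = 0.338). Per gene length, SNAI2 made up 79.9% ± 2.35 of the summed TPM of the 4 factors in shNC and 83.0% ± 0.729 in shMSLN cells (SD, n = 3 each). The groups overlapped in this share (p = 0.2 by exact permutation, two-sided). ZEB1 and ZEB2 were each at or below 0.79 TPM in every sample.

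Of the 6 regulators of the epithelial state, 0 rose, 4 fell and 2 did not pass, beside 16.6% higher and 18% lower over all tested genes. Their median log2 fold change was -0.15. GRHL1, a grainyhead-like factor active in epidermal differentiation and a regulator of desmosomal genes, fell from 20.6, 20.5 and 19.7 CPM to 16.0, 14.8 and 14.7 CPM (log2 fold change -0.42, standard error 0.071, adjusted p = 0.000372). Its relative GRHL2, which maintains CDH1 and claudin expression in many epithelia, was at 221 to 226 and 231 to 237 CPM. Its groups did not overlap, and its log2 fold change of 0.063 did not pass (adjusted p = 0.178) except with upper-quartile scaling (0.093, adjusted p = 0.0499). The GRHL1 share of the summed GRHL1 and GRHL2 TPM was 11.7% ± 0.283 in shNC and 8.72% ± 0.407 in shMSLN cells (SD, n = 3 each). OVOL1, a zinc-finger repressor of EMT factors, fell from 11.4, 12.5 and 11.4 CPM to 9.62, 9.53 and 8.25 CPM (-0.36), and lost its call without shMSLN replicate 3 (adjusted p = 0.0556).

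ESRP1 and ESRP2, the splicing regulators that produce epithelial isoforms, fell by similar amounts, with log2 fold changes of -0.14 and -0.17. ESRP1 was at 218, 220 and 231 CPM in shNC and at 200, 207 and 200 CPM in shMSLN samples, and lost its call without shNC replicate 3 (adjusted p = 0.0701) or shMSLN replicate 3 (0.0643). ESRP2 was at 83.2 to 85.2 and 74.6 to 75.9 CPM, and part of its exons overlap NFATC3 on the other strand and further genes on its own. Without shMSLN replicate 3, 2 instead of 4 regulators were called. EPCAM, the epithelial adhesion molecule used to mark carcinoma cells, was at 258, 237 and 245 CPM in shNC and 243, 240 and 241 CPM in shMSLN samples, and its log2 fold change was -0.030 (standard error 0.039, 95% interval -0.11 to 0.053, adjusted p = 0.590). Per gene length, EPCAM was at 354 ± 9.02 TPM in shNC and 355 ± 1.46 TPM in shMSLN cells (SD, n = 3 each). VIM was at 1.497 ± 0.794 and 1.82 ± 0.871 TPM (SD, n = 3 each). FN1 was at 6.54 ± 0.627 and 8.37 ± 0.463 TPM and CDH2 at 3.51 ± 0.585 and 6.57 ± 0.590 TPM (SD, n = 3 each). These mesenchymal markers were thus far below EPCAM in both groups.

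The same fit was read for 87 further genes of these pathways. Of the 78 that were tested, 12 were higher and 24 lower, with a median log2 fold change of -0.028. Over all tested genes, 16.6% were higher and 18% lower, with a median of 0.0019. Among 28 tested tight junction and polarity genes outside the list, 3 rose and 6 fell, so the called genes did not share 1 direction. The median log2 fold change of the 28 was -0.022. The largest falls there were in PARD6B, part of the apical PAR complex, from 22.4 to 26.9 CPM to 16.7 to 17.4 CPM (-0.57), and in DLG1, a basolateral scaffold, from 181 to 194 CPM to 137 to 143 CPM (-0.43). Among 15 adherens junction genes outside the list, 2 rose and 6 fell, with a median log2 fold change of -0.15. CDH13, the GPI-anchored T-cadherin, fell from 58.2 to 65.6 CPM to 40.4 to 42.1 CPM (-0.62), and PDLIM1, an actin-associated PDZ-LIM protein, rose from 860 to 871 CPM to 1170 to 1189 CPM (0.45). Among 10 desmosome and keratin genes, 1 rose and 3 fell, led by KRT5, a basal keratin, from 2088 to 2426 CPM to 1722 to 1785 CPM (-0.38), and IVL, the cornified envelope protein involucrin, from 22.1 to 25.0 CPM to 28.6 to 31.4 CPM (0.36). Among 15 epithelial regulators, 3 rose and 6 fell, led by ELF5 (0.67) and KLF4 (-0.52). Among 10 EMT genes, 3 rose and 3 fell, led by PRRX2 (-0.72) and TAGLN (0.64).

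SNAI2 and the ZEB factors bind the E-box CAGGTG, whose complement reads CACCTG. Promoters (250 bases before to 50 after the gene start, RefSeq, GRCh38.p14) were at hand for 25 of the 42 members and were searched for it on both strands. No promoter was at hand for CDH1, CDH3, SNAI2, TWIST1, EPCAM, ESRP1, ESRP2, GRHL2, OVOL1, CTNND1, MARVELD3, F11R, LLGL2, PKP2, PKP3, PPL and EVPL. These genes were not searched. The E-box was found in 8 of the 25 (32%), beside 18.9% of 11626 tested genes with a promoter. Among them, ZEB1, CLDN3, OCLN and CRB3 were not called in either direction. The E-box was in 3 of the 8 lower members with a promoter (TJP1, DSP and DSC2) and in 1 of the 6 higher ones (DSG2). A match describes the letters only. The windows below show an E-box in capitals with its flanks for each of the 4 called genes, 5′ to 3′ along the gene. They set DSC2 and DSG2, desmosomal cadherin genes of 1 cluster that changed in opposite directions, beside the lower plaque and scaffold genes. They lie at chr15:29969108-29969161 (TJP1, reverse strand), chr6:7541469-7541522 (DSP, forward strand), chr18:31102548-31102601 (DSC2, reverse strand) and chr18:31497927-31497974 (DSG2, forward strand).
TJP1: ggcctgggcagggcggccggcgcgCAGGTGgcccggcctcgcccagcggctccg
DSP: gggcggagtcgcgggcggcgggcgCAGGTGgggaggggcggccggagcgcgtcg
DSC2: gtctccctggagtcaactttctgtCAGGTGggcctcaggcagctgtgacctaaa
DSG2: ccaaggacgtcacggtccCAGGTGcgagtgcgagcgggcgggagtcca
Counted from the RefSeq gene start used for the promoters, these E-boxes begin at -88 in TJP1, -178 in DSP, -156 in DSC2 and -232 in DSG2. The GENCODE positions of these genes start at other bases, so the distances hold for the RefSeq start only. The calls of DSP, DSC2 and DSG2 were each lost in some alternatives, as given above. Whether SNAI2 or ZEB factors bind these E-boxes in these cells was not tested. DSP and DSG2 each had 1 further E-box in their promoter, which is not printed.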

How the data were processed

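RNA-Seq of HCC1806/HM3 cells was analysed in 3 shNC and 3 shMSLN samples, grouped by their labels. The authors deposited 1 table of estimated read counts (expected counts, not scaled to library size) and TPM per gene; the processing notes name GRCh38.p13, and the aligner, quantifier and annotation are not given in the sources used here. The FPKM columns were not used. Marks in place of numbers in the shMSLN columns were read as missing, which left 16573 genes.

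Estimated counts were rounded to whole numbers and fitted by group alone with glmQLFit and glmQLFTest of edgeR (version 4.0.16, R 4.3.3), after filterByExpr and TMM scaling, across all 14552 genes passing the filter. Standard errors were taken as the log2 fold change divided by the square root of F. The deposited TPM served to set levels of genes side by side; differences in TPM shares were tested by exact permutation over samples. The scripts were checked on simulated counts. Members and gene lists were chosen with earlier results of these data known. Full statistics were given for called members with a log2 fold change of at least 0.5 in size and for CDH1, CDH2, VIM, ZEB1 and EPCAM; from each wider list the 2 largest called changes with a mean of at least 1 CPM were named. Alternatives were RLE and upper-quartile scaling, filters of at least 1 count in all and at least 10 in every sample, DESeq2 1.42.0, limma-voom (limma 3.58.1), robust estimation, a replicate block, omission of each sample in turn and, chosen after seeing the data, shMSLN replicate 1 alone. Gene positions come from GENCODE release 29 (GRCh38); the annotation behind the deposited table may differ. Depth (17507837 to 18512135 counts per sample) limits what can be resolved for genes near 1 CPM.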

Additional observations from a re-analysis of the deposited data

How the results depend on the processing

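The number of members called higher (8) ranged from 7 to 9 and the number called lower (16) from 12 to 18 over the alternatives with at least 2 samples per group. With shMSLN replicate 1 alone against shNC, a single sample assumed to vary like the controls, 2 were higher and 3 lower (CDH2, DSG3, CLDN7, TJP3 and PKP1), and 1797 instead of 5032 of all genes were called. These 5 members were called the same way in all 15 alternatives, the other 19 called members lost the call in that fit, some in others too, and 0 of the 24 changed sign. Of the 18 members not called, 5 passed in at least 1 alternative. Upper-quartile scaling moved the median of epithelial state regulators from -0.15 to -0.12 and that of the adherens class from 0.0062 to 0.035, with the median of all genes at 0.031. With 1 sample left out at a time, the desmosome median ranged from -0.12 to -0.017, nearest to 0 without shNC replicate 1, and was -0.029 with shMSLN replicate 1 alone. The median of the 3 mesenchymal markers ranged from 0.29 to 0.54, highest without shMSLN replicate 1, which moved VIM. CTNNA3 was not tested under the filter of at least 10 counts in every sample. With the replicate block, 8 members were higher and 18 lower, CLDN1 (adjusted p = 0.0139) and EVPL (0.0408) being added. Deviations of samples with the same number had correlations of 0.22, 0.085 and 0.095, and each sample correlated best with its own number, but the labels do not say that the numbers pair the samples.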
